A study of Mus musculus with 12 samples.

Results

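Zmat3 (also named Wig1) is 1 gene of the 23955 listed in each gene table and of the 14785 that passed a filter on low counts. It was chosen by its expected counts, which in neurons with the Zfr hairpin stood far above that with either control hairpin, and further above than those of other p53 target genes. Those differences are therefore given as a description with no test. Tests of Zmat3 are given for the comparisons without shZfr. Their control samples were part of the choice, so these tests are not independent of it. RNA came from primary cortical neuron cultures of E16.5 C57BL/6J mouse embryos. The cultures received lentivirus 1 day after plating and were collected on day 7 from dissection. All 5 groups carried a short hairpin RNA in the same vector: shAdar1 against Adar, shAdar2 against Adarb1, shZfr against Zfr, and the control hairpins shControl1 and shControl2. Each target was hit with 1 hairpin, and each group held 2 biological replicates. Replicate 1 of shAdar2 was made of 3 technical libraries from RNA of the same neurons, and their counts were summed.

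Zmat3 encodes a zinc finger protein that binds double-stranded RNA and AU-rich elements. It is a direct transcriptional target of p53, the DNA damage-responsive transcription factor, and it has been described in human cells as a regulator of the stability and splicing of other RNAs, among them those of p53 and its inhibitors. Zfr, the target of one of the hairpins, encodes another RNA-binding zinc finger protein, with a DZF domain that is also found in Strbp and Zfr2. ADAR1 and ADAR2, the products of Adar and Adarb1, are editing enzymes that turn adenosine into inosine within RNA duplexes. Neurons use p53 target genes in the response to DNA damage and in developmental cell death.

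The gene was counted through a single RefSeq transcript, NM_009517, of 7782 nucleotides. In GENCODE M21 the transcript paired with it lies on the minus strand of chromosome 3, has 6 exons and encodes 290 residues. Its 3′ UTR of 6692 nucleotides makes up 85.8% of the GENCODE transcript. RSEM gave Zmat3 whole counts with a posterior SD of 0 in every library, so no reads were shared with another gene in its model, while 1263 genes had a posterior SD above 0 in at least 1 library. Libraries held 15818943 to 29671858 expected counts, of which 1505 to 12630 belonged to Zmat3. The ribosomal precursor Rn45s took 1.67% to 5.44% of counts.

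The target of each hairpin was low in its own group. Adar was at 53.3 ± 2.43 CPM (read counts scaled to a common library size, with TMM factors) in shAdar1 and 172.2 ± 27.6 CPM in shControl1. Adarb1 was at 50.2 ± 2.53 CPM in shAdar2 and 120.4 ± 2.77 CPM in shControl1. Zfr was at 172.6 ± 0.118 CPM in shZfr and 458.8 ± 52.6 CPM in shControl2 (SD, n = 2 each, as for the levels above). The log2 fold change was −1.41 ± 0.11 SE. Against shControl1, at 278.8 ± 15.7 CPM (SD), the log2 fold change of Zfr in shZfr was −0.69 ± 0.11 SE. The levels of Zfr and Adarb1 do not tell the shZfr and shAdar2 groups apart, as given below, so the targets do not check those labels against each other.

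Zmat3 was present in every library and its 5 groups fell on 4 separate levels. In shZfr neurons it was at 642 and 635 CPM. In shAdar2 neurons it was at 255 and 236 CPM. In shAdar1 neurons it was at 160.3 and 160.5 CPM. These last values lay inside the range of the shControl1 cultures, at 159 and 161 CPM. The shControl2 cultures were the lowest, at 71.8 and 70.2 CPM. Replicates lay close together, and no sample of one group overlapped with another group except between shAdar1 and shControl1. On the log2 scale the replicates of Zmat3 differed by −0.002 in shAdar1, 0.11 in shAdar2, 0.02 in shZfr, −0.02 in shControl1 and 0.03 in shControl2 (replicate 1 minus replicate 2). The median absolute replicate difference over all tested genes was 0.19, 0.31, 0.08, 0.19 and 0.16 in the same order, so the replicates of Zmat3 lay closer together than those of the median gene in each group. That comparison was not matched for level: Zmat3 had a mean of 255 CPM, and only 11111 of the 14785 tested genes had a mean of at least 5 CPM. The 3 technical libraries of shAdar2 replicate 1 gave 274, 232 and 258 CPM, a range wider than the difference between the shAdar2 replicates and still above every sample of shAdar1 and of both controls.

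**Figure D1:**
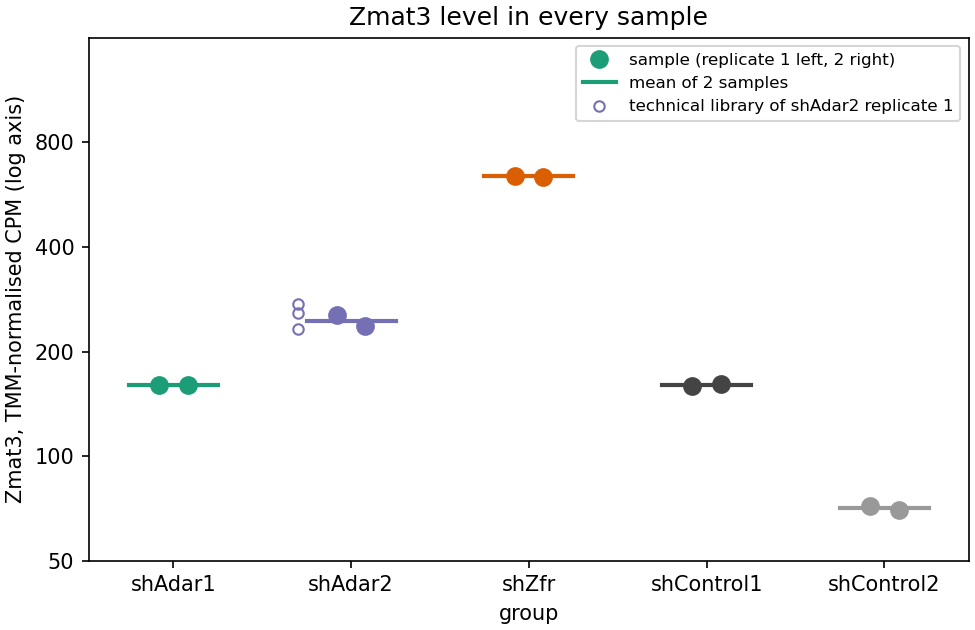
Zmat3 level in TMM-normalised CPM (log axis) for each of the 10 samples, by group; filled points are samples, lines are means of 2 samples, and open points are the 3 technical libraries of shAdar2 replicate 1. The shZfr samples sit at 642 and 635 CPM, and shControl2 is the lowest group at 71.8 and 70.2 CPM.

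Per length the order of the groups was kept. Zmat3 was at 247 and 244 TPM (RSEM's level corrected for transcript length) in shZfr, and at 28.8 and 28.1 TPM in shControl2. It was at 53.3 and 54.4 TPM in shAdar1, and at 56.8 and 60.0 TPM in shControl1, so on this scale the shAdar1 samples lay just below the shControl1 samples. The shAdar2 libraries held 102, 88.7, 90.0 and 90.7 TPM. By TPM, Zmat3 ranked 697 and 699 among all listed genes in the shZfr libraries, 1934 to 2385 in the shAdar2 libraries, 3788 and 3869 in shAdar1, 3777 and 3807 in shControl1, and 6783 and 6804 in shControl2. RSEM's interval for the TPM, whose level the file headers do not give, ran from 239.5 to 248.6 in shZfr replicate 1 and from 27.1 to 30.0 in shControl2 replicate 1. Counting error was therefore small beside the differences between groups. In bulk RNA of a culture, fewer cells that express a gene and less RNA per cell cannot be told apart.

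The shAdar1 and shAdar2 comparisons with shControl1 asked what lowering each editing enzyme changes. The choice of Zmat3 used their shControl1 samples but not their shAdar1 and shAdar2 samples. Zmat3 did not pass the test in shAdar1, with means of 160.4 ± 0.137 CPM in shAdar1 and 160.0 ± 1.29 CPM in shControl1 (SD, n = 2 each). The log2 fold change was 0.003 ± 0.086 SE with a 95% interval of −0.19 to 0.20 (edgeR quasi-likelihood test, adjusted p = 0.984), so a change of more than 0.20 in either direction lay outside the interval. In this comparison 16.2% of all tested genes were called, 9.33% higher and 6.9% lower. Zmat3 rose in shAdar2, to 245.7 ± 13.4 CPM against 160.0 ± 1.29 CPM in shControl1, which is 1.53-fold (log2 fold change 0.62 ± 0.09 SE, 95% interval 0.43 to 0.81, edgeR adjusted p = 0.000469). In that comparison 46.4% of all tested genes were called, 23.2% higher and 23.2% lower. Against both control hairpins pooled, the shAdar2 change was 1.09 ± 0.34 (edgeR adjusted p = 0.0359). The labels do not say whether replicates came from separate dissections, so these p-values measure the spread between these samples, which may be technical.

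The level of Zmat3 differed between the control groups, where hairpin and culture cannot be told apart. It was lower in shControl2, at 71.0 ± 1.15 CPM, than in shControl1, at 160.0 ± 1.29 CPM (log2 fold change −1.17 ± 0.09, edgeR adjusted p = 3.25e-05), in a comparison in which 43.1% of genes were called, 19.9% higher and 23.2% lower. Any change measured against shControl2 therefore starts lower. Against shControl2, Zmat3 was higher by 1.18 ± 0.09 in shAdar1 (2.26-fold, edgeR adjusted p = 0.00016, with 33.2% of genes called) and by 1.79 ± 0.09 in shAdar2 (3.46-fold, edgeR adjusted p = 2.64e-06, with 59.5% called). Both share the shControl2 samples with the difference between the controls, and the choice of Zmat3 used the samples of both controls. With the controls pooled, the shAdar1 difference was 0.47 ± 0.34 and did not pass (edgeR adjusted p = 0.561).

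For the hairpin against Zfr the values that led to the choice of Zmat3 were as follows. The level in shZfr was 638.4 ± 4.95 CPM, against 71.0 ± 1.15 CPM in shControl2 and 160.0 ± 1.29 CPM in shControl1. The log2 fold change was 3.17 ± 0.09 SE (8.99-fold) against shControl2 and 2.00 ± 0.09 (3.99-fold) against shControl1. It was 1.99 ± 0.09 against shAdar1 and 1.38 ± 0.09 against shAdar2. Against shControl2, Zmat3 was 28th of 14785 genes by log2 fold change, and 4th of the 11111 genes with a mean of at least 5 CPM. Against shControl1 it was 367th and 185th. Only 11 of the tested genes, Zmat3 among them, had a fold change as large as that of Zmat3 against both control hairpins. Of these 11, the only other gene with a mean of at least 5 CPM was Ahnak, a very large scaffold protein at the cell membrane, picked out after its values were seen, at 168 and 171 CPM in shZfr, against 15.8 and 17.4 CPM in shControl2 and 18.3 and 20.7 CPM in shControl1. Ahnak did not follow Zmat3 in the other groups: it fell in shAdar2 against shControl1 (−1.37 ± 0.22, edgeR adjusted p = 0.00099).

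The level of Zfr itself is given beside that of Zmat3 as a description, since the shZfr and control values of Zmat3 were used to choose it. Zfr was at 173 and 173 CPM in shZfr, 179 and 197 CPM in shAdar2, 323 and 290.5 CPM in shAdar1, 289.9 and 268 CPM in shControl1, and 422 and 496 CPM in shControl2. The shZfr and shAdar2 samples were the lowest and the shControl2 samples the highest. Zfr fell in shAdar2 against shControl1 (−0.57 ± 0.11, edgeR adjusted p = 0.00292), where Zmat3 rose, and was higher in shControl2 than in shControl1 (0.72 ± 0.11, edgeR adjusted p = 0.000886), where Zmat3 was lower. Zfr in shZfr differed from Zfr in shAdar2 by −0.12 ± 0.11 (95% interval −0.38 to 0.13, edgeR adjusted p = 0.36), while Zmat3 was 2.60-fold higher in shZfr than in shAdar2. Per length, the libraries held 2.15 and 2.13 Zmat3 transcripts per Zfr transcript in shZfr, 0.694 to 0.848 in shAdar2, 0.287 and 0.320 in shAdar1, 0.318 and 0.348 in shControl1, and 0.0984 and 0.0818 in shControl2. The part of Zfr in the level of Zmat3 was not tested.

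Adarb1, the target of the shAdar2 hairpin, was low in the same pair of groups in which Zmat3 was highest. It was at 49.2 and 45.5 CPM in shZfr and at 48.5 and 52.0 CPM in shAdar2, against 122 and 118 CPM in shControl1 and 99.4 and 92.0 CPM in shControl2. It was lower in shZfr against shControl2 (−1.01 ± 0.12, edgeR adjusted p = 0.000381) and in shZfr against shControl1 (−1.35 ± 0.12, edgeR adjusted p = 4.03e-05). Between shZfr and shAdar2, Adarb1 differed by −0.08 ± 0.12 (95% interval −0.36 to 0.19, edgeR adjusted p = 0.564). The part of Adarb1 in the level of Zmat3 was not tested.

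**Figure D2:**
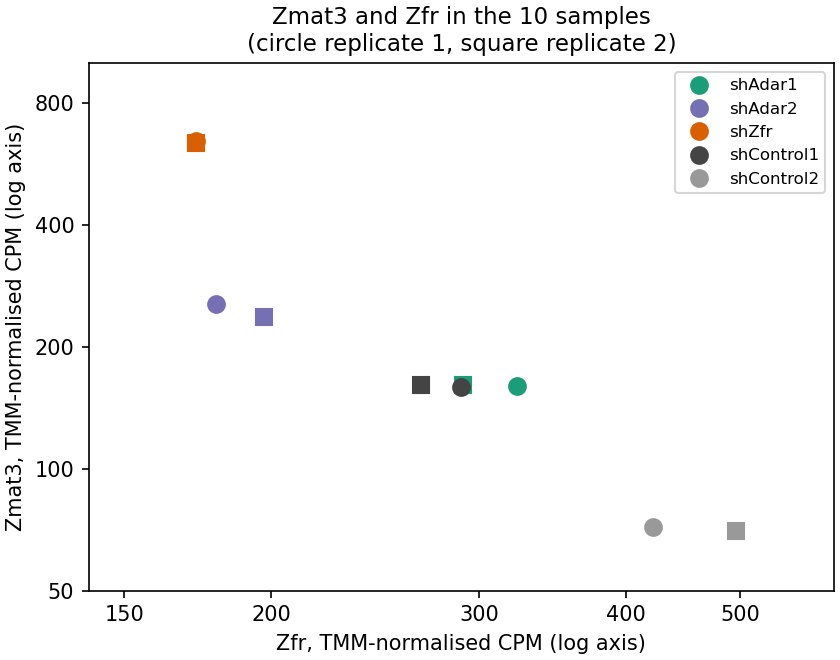
Zmat3 against Zfr, both in TMM-normalised CPM on log axes, in the 10 samples, with colours for groups and shapes for replicates. The shZfr and shAdar2 samples lie close together on the Zfr axis (173 and 173 CPM beside 179 and 197 CPM) and far apart on the Zmat3 axis (642 and 635 CPM beside 255 and 236 CPM).

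Zmat3 is one of the genes that p53 switches on, and it was set beside 35 other p53 targets, of which 34 passed the filter. In shAdar1, where Zmat3 did not pass the test, 17 of the 34 fell against shControl1, 17 did not pass and none rose. Their median log2 fold change was −0.87, where the median of all tested genes was 0.02 and 6.9% of all genes were called lower. The falls included the cell cycle inhibitor Cdkn1a (−1.56 ± 0.16), the apoptosis genes Bbc3 (−1.54 ± 0.19) and Phlda3 (−1.73 ± 0.17), and the growth-restraining stress gene Sesn2 (−1.34 ± 0.15). Cyclin G1 (Ccng1), an early p53 target, fell by 0.94 ± 0.17, and the autophagy- and stress-linked Trp53inp1 by 1.24 ± 0.19. The pro-apoptotic Bax (−0.41 ± 0.15), the death receptor gene Eda2r (−1.36 ± 0.43) and the kinase gene Plk2 (0.37 ± 0.11) did not pass. Zmat3, at 0.003, stood above 26 of the 34 and below 8. Against shControl2, 5 rose and 4 fell in shAdar1, with 19.3% of all genes called higher and 13.9% lower, and the median was 0.19, beside 0.03 for all genes.

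In shAdar2 the p53 targets moved both ways against shControl1 while Zmat3 rose. Of the 34, 7 rose and 9 fell, near the share called among all genes, with a median of 0.14 beside 0.04 for all genes. Sesn2 (0.71 ± 0.15), the death receptor gene Tnfrsf10b (1.62 ± 0.36) and the DNA repair gene Xpc (1.06 ± 0.14) rose with Zmat3. Ccng1 (−2.05 ± 0.17) and Trp53inp1 (−1.68 ± 0.19) fell. Cdkn1a (0.38 ± 0.15), Bbc3 (0.43 ± 0.18), Bax (0.32 ± 0.15) and Phlda3 (0.29 ± 0.17) did not pass. Without shControl1 replicate 1, 9 of the 34 were called in all, against 16 with it. Against shControl2, 22 of the 34 rose and 4 fell in shAdar2, with a median of 0.82 beside 0.09 for all genes, 32.2% of which were called higher and 27.3% lower.

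Between the controls, where Zmat3 was lower in shControl2, 20 of the 34 were also lower in shControl2 than in shControl1, 1 was higher and 13 did not pass, with a median of −0.98 beside −0.05 for all genes, 23.2% of which were called lower. Zmat3, at −1.17, stood below 20 of the targets and above 14. Cdkn1a differed by −1.74 ± 0.16, Bbc3 by −1.75 ± 0.19, Bax by −1.75 ± 0.16 and Phlda3 by −2.03 ± 0.18. Ccng1 (0.14 ± 0.17), Trp53inp1 (0.07 ± 0.18) and Plk2 (0.30 ± 0.11) did not pass.

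In the shZfr comparisons, where Zmat3 was chosen for standing beyond them, none of the 34 p53 targets had a fold change as large as that of Zmat3. Against shControl2, 22 were called higher and 1 lower, with a median of 0.75 and a highest value of 2.08, that of the death receptor gene Fas, while 30.7% of all genes were called, 16.7% higher and 14.1% lower. Against shControl1, 6 were called higher and 10 lower, with a median of −0.28 and a highest value of 1.51, that of Trp53inp1, while 46.2% of all genes were called, 22.8% higher and 23.4% lower. The medians of all genes were 0.05 and −0.03. Cdkn1a, which differed between the controls, stood at 1.44 ± 0.16 against shControl2 and −0.29 ± 0.16 against shControl1. Ccng1 (0.77 ± 0.17 and 0.91 ± 0.17) and Trp53inp1 (1.45 ± 0.19 and 1.51 ± 0.19) were on the same side against both. Trp53inp1 was at 562 and 578 CPM in shZfr, against 174 and 244 CPM in shControl2 and 202 and 198 CPM in shControl1. Unlike Zmat3, it was lower in shAdar2, at 53.4 and 72.0 CPM, and in shAdar1, at 75.0 and 94.1 CPM, than in every control sample. The 2 shZfr comparisons share the shZfr samples, so their values are not independent of each other. The counts of p53 targets called against shControl2 were 13 to 15 when any 1 of the 4 samples was left out, against 23 with all, and against shControl1 they were 10 without shZfr replicate 1 and 9 without shZfr replicate 2, against 16.

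**Figure D3:**
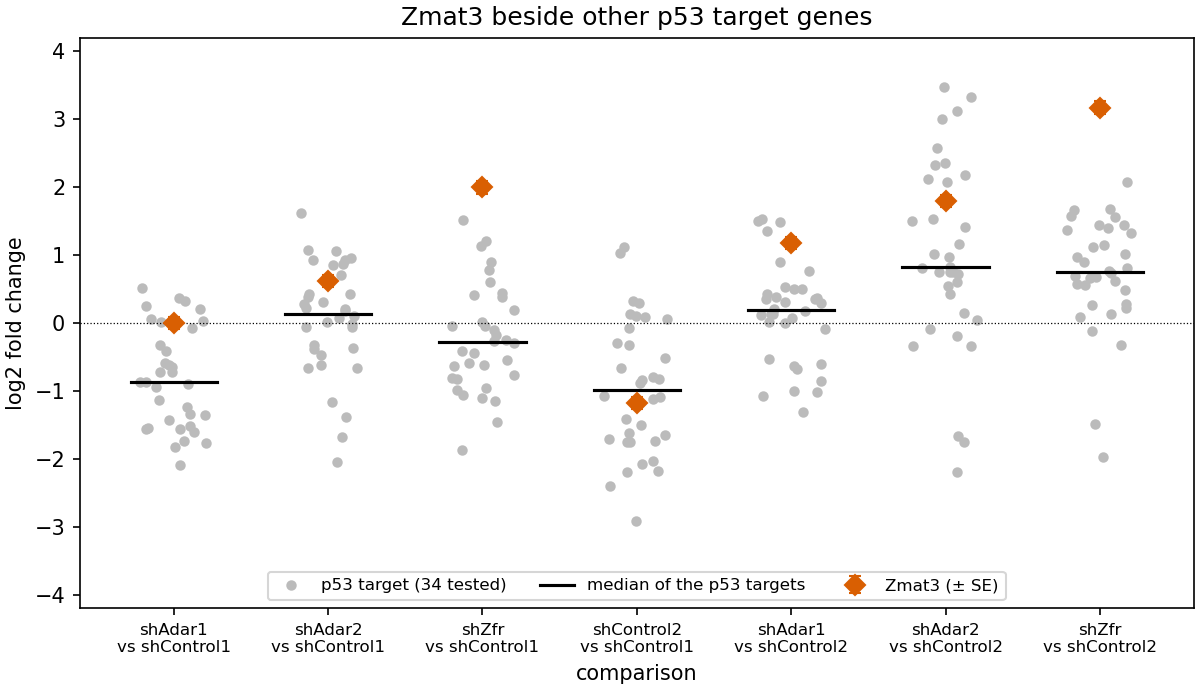
Log2 fold change of Zmat3 (orange, ± SE) beside 34 other p53 targets (grey points, 1 gene each) and their median (black line), in 7 comparisons. Zmat3 stands above all 34 in both shZfr comparisons, at 2.00 and 3.17, and at 0.003 while the p53 median is −0.87 in shAdar1 against shControl1.

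The messages of p53 and its regulators gave no single direction. Trp53, which encodes p53 itself, was at 16.46 and 14.7 CPM in shZfr, against 11.7 and 10.6 CPM in shControl2 and 15.2 and 15.8 CPM in shControl1, and did not pass against either (0.48 ± 0.18 and 0.01 ± 0.18). Trp53 rose in shAdar2, to 24.9 and 28.04 CPM against 15.2 and 15.8 CPM in shControl1 (0.77 ± 0.18, edgeR adjusted p = 0.00646). Mdm2, a p53 target that marks p53 for degradation, fell in shAdar1 against shControl1 (−0.57 ± 0.16, edgeR adjusted p = 0.0377) and did not pass in shAdar2 (0.18 ± 0.16). In shZfr, Mdm2 was higher against shControl2 (0.54 ± 0.16, edgeR adjusted p = 0.0295) and did not pass against shControl1 (0.05 ± 0.16). Mdm4, the other main inhibitor of p53, fell in shAdar2 (−0.39 ± 0.11, edgeR adjusted p = 0.0172). Of the 10 genes of the list, 1 rose and 1 fell in shAdar1 and 2 rose and 2 fell in shAdar2, against shControl1, where 9.33% and 6.9% of all genes rose and fell in shAdar1 and 23.2% each way in shAdar2. In shZfr, 1 was higher and 1 lower against shControl2, where 16.7% and 14.1% of all genes were, and 5 were higher and none lower against shControl1, where 22.8% and 23.4% of all genes were. Those 5 were Mdm4, Ppm1d, Usp7, Atm and Trp63, the last at a mean of 0.67 TPM in shZfr.

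RNAs that ZMAT3 is described to bind, stabilise or splice in human cells were looked up by level, which does not show splicing. The list of 7 shares Trp53, Mdm2 and Mdm4 with the regulators above and Fas with the p53 targets. Cd44, a cell adhesion receptor gene whose exon choice ZMAT3 is known to alter, was at 44.6 and 47.2 CPM in shZfr, against 22.4 and 24.8 CPM in shControl2 and 13.1 and 10.0 CPM in shControl1. It was called higher in shZfr against both (0.96 ± 0.33, edgeR adjusted p = 0.0496, and 1.99 ± 0.34, edgeR adjusted p = 0.00114). Cd44 did not pass in shAdar2 (0.64 ± 0.33), where Zmat3 rose, nor in shAdar1 (0.42 ± 0.33). The transcription factor gene Mycn rose in shAdar1 (0.65 ± 0.13, edgeR adjusted p = 0.0102) and in shAdar2 (0.37 ± 0.13, edgeR adjusted p = 0.0366) against shControl1, and did not pass in shZfr, at −0.18 ± 0.13 against shControl2 and 0.33 ± 0.13 against shControl1. Of the 7, 3 rose and 1 fell in shAdar2 (23.2% of all genes each way), and 1 rose and 2 fell in shAdar1 (9.33% and 6.9% of all genes), against shControl1. In shZfr, 3 were higher and none lower against shControl2 (16.7% and 14.1% of all genes), and 2 were higher and none lower against shControl1 (22.8% and 23.4% of all genes).

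Other matrin-type and related zinc finger genes were called in both directions. Of the 8 tested in shZfr against shControl2, 1 was higher and 3 were lower, with a median of −0.15, while 16.7% and 14.1% of all genes were. Against shControl1, 2 were higher and 3 lower, while 22.8% and 23.4% of all genes were. Matr3, which encodes the nuclear matrix RNA-binding protein matrin 3, was higher in shZfr (0.72 ± 0.13 against shControl2, edgeR adjusted p = 0.00257) and fell in shAdar2 (−1.06 ± 0.12 against shControl1, edgeR adjusted p = 0.000205). Zfp385a, another gene for a zinc finger protein that binds RNA, was lower in shZfr (−0.91 ± 0.13 against shControl2, edgeR adjusted p = 0.000907) and rose in shAdar2 (0.58 ± 0.12 against shControl1, edgeR adjusted p = 0.00421). Of the DZF domain genes, Strbp fell in shAdar2 (−1.60 ± 0.13, edgeR adjusted p = 2.92e-05) and Zfr2 rose (1.36 ± 0.20, edgeR adjusted p = 0.00063), against shControl1, and neither passed in shAdar1 (0.03 ± 0.12 and 0.15 ± 0.20). Of 13 genes for AU-rich element binding proteins and the RNA-silencing factor Ago2, 5 fell and none rose in shAdar2 against shControl1, with a median of 0.02, while 23.2% of all genes were called each way. In shAdar1 3 rose and none fell, with a median of 0.32, while 9.33% and 6.9% of all genes did. In shZfr, 2 were higher and 1 lower against shControl2 (16.7% and 14.1% of all genes), and 9 were higher and 2 lower against shControl1 (22.8% and 23.4% of all genes).

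The 2 nearest tested genes on each side of Zmat3 on chromosome 3 each differed from it in at least 1 comparison. Many genes would, since as many as 59.5% of all genes were called in a comparison (shAdar2 against shControl2). The order of genes was taken from the RefSeq annotation of GRCm38, while the files name mm9. The lncRNA gene 4930429B21Rik overlaps the 5′ end of Zmat3 in that annotation, and the posterior SD of 0 for Zmat3 means that RSEM divided no read between them. The sources used here do not say whether counting used strand. The lncRNA was at 3.57 and 2.81 CPM in shZfr, against 3.34 and 2.01 CPM in shControl2 and 13.1 and 15.1 CPM in shControl1. In shAdar1 it was at 7.70 and 8.48 CPM, lower than in shControl1 (−0.80 ± 0.23, edgeR adjusted p = 0.0443). Like Zmat3 it was lower in shControl2 than in shControl1 (−2.40 ± 0.25, edgeR adjusted p = 0.000126), but in shZfr it was at 0.25 ± 0.26 against shControl2 and lower than in shControl1 (−2.15 ± 0.25, edgeR adjusted p = 0.000153). Pik3ca, the catalytic subunit gene of phosphatidylinositol 3-kinase alpha and the next protein-coding gene on that side, was at 225 and 230.3 CPM in shZfr, against 151 and 159 CPM in shControl2. It was higher in shZfr against shControl2 (0.56 ± 0.12, edgeR adjusted p = 0.00646). Pik3ca was also higher in shZfr than in shAdar1 (0.73 ± 0.12) and in shAdar2 (1.37 ± 0.12, beside 1.38 for Zmat3). Its mean was 76.2 TPM in shZfr, 38.2 TPM in shControl1 and 54.0 TPM in shControl2, so shZfr stood further above shControl1 than above shControl2. Pik3ca fell in shAdar2 against shControl1 (−0.45 ± 0.12, edgeR adjusted p = 0.0117), where Zmat3 rose. On the other side, the potassium channel subunit gene Kcnmb2, 134.6 kb from Zmat3, fell in shAdar2 (−1.57 ± 0.18, edgeR adjusted p = 0.000167). The amino acid transporter gene Slc7a14, as far as 1024 kb from Zmat3, was lower in shZfr against shControl2 (−1.33 ± 0.18, edgeR adjusted p = 0.00072). Kcnmb3, beyond Pik3ca, did not pass the filter.

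**Figure D4:**
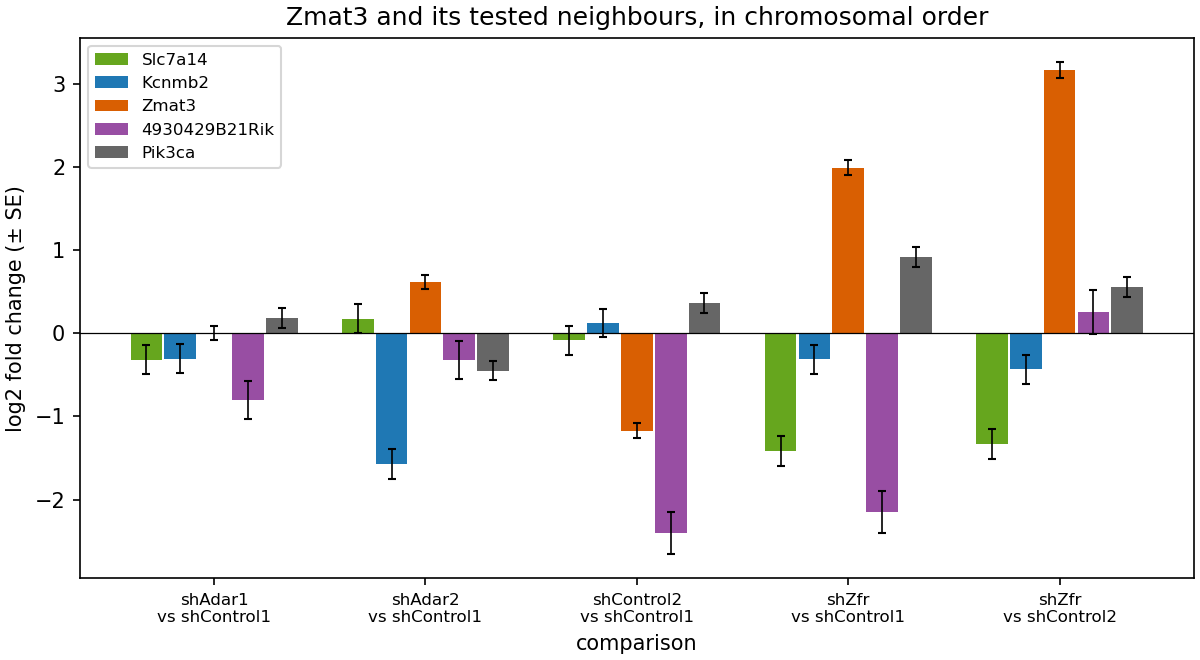
Log2 fold changes (bars, ± SE) of Zmat3 and the 2 nearest tested genes on each side, in chromosomal order, in 5 comparisons. In shZfr against shControl2, Zmat3 stands at 3.17 beside 0.56 for Pik3ca and 0.25 for 4930429B21Rik.

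The genes whose pattern over the 10 samples was most like that of Zmat3 were sought among the 11110 other genes with a mean of at least 5 CPM, by the root mean square difference of their centred log2 levels. This measure uses all 10 samples, among them the shZfr samples for which Zmat3 was chosen, so it describes likeness and tests nothing. The fold changes of these genes are therefore descriptions, given with no p-value. The closest was Pip4k2c, a gene for a phosphatidylinositol phosphate kinase subunit, with a difference of 0.359. Pip4k2c was at 52.9 and 50.3 CPM in shZfr, 27.1 and 28.2 CPM in shAdar2, 23.8 and 21.8 CPM in shAdar1, 22.5 and 27.1 CPM in shControl1, and 10.9 and 10.4 CPM in shControl2. The log2 fold change of Pip4k2c was −0.12 ± 0.13 in shAdar1 against shControl1 and −1.23 ± 0.14 in shControl2 against shControl1. Pip4k2c was at 0.15 ± 0.13 in shAdar2 against shControl1, where Zmat3 rose. The next 7 were B630019K06Rik (0.452), the homeobox gene Zfhx2 (0.509), the mRNA-binding protein gene Igf2bp2 (0.520), the actin-binding Shroom3 (0.527), the podosome scaffold gene Sh3pxd2a (0.531), Shkbp1 (0.535) and Lrch4 (0.559). Of these 8 genes, Zfhx2, Shroom3, Sh3pxd2a and Shkbp1 were called higher in shAdar2 against shControl1, by 0.62 ± 0.17 (Shroom3) to 1.33 ± 0.13 (Sh3pxd2a). In that comparison 23.2% of all genes were called higher, and the 8 were picked in part by their levels in those samples. None of the 8 is on the p53 list used here, but only 34 of the 14785 tested genes are, so this says nothing about p53.

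**Figure D5:**
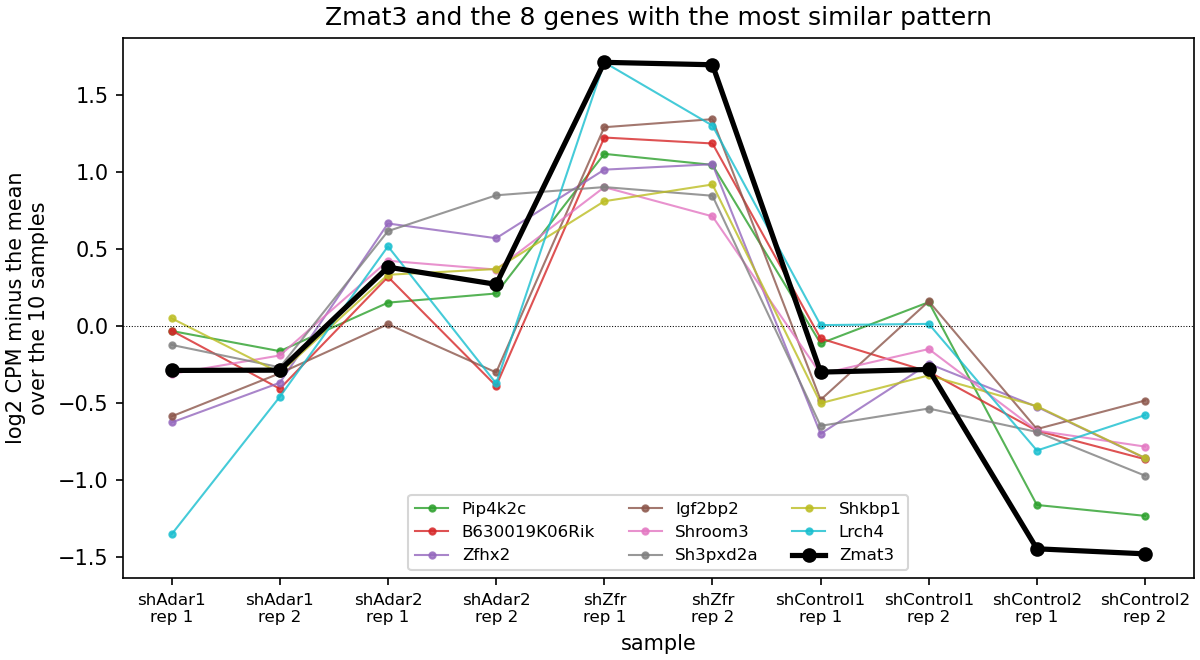
Log2 CPM minus its mean over the 10 samples for Zmat3 (thick black line) and the 8 genes with the most similar pattern. All 9 peak in a shZfr sample, and in shControl2 Pip4k2c comes closest to the low level of Zmat3.

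The cultures also differed in marker genes of cell types, whose part in the level of Zmat3 was not tested. The counts of markers below stand beside the following shares of all genes called higher and lower: 16.7% and 14.1% in shZfr against shControl2, 22.8% and 23.4% in shZfr against shControl1, 23.2% each way in shAdar2 against shControl1, 9.33% and 6.9% in shAdar1 against shControl1, and 19.9% and 23.2% in shControl2 against shControl1. Summed levels of 8 neuron markers were 7683 and 7814 CPM in shZfr, against 6478 and 7053 CPM in shControl2 and 5146 and 4812 CPM in shControl1, with 1 marker higher and 1 lower against shControl2 and 3 higher and 1 lower against shControl1. In shAdar2 they were 2760.0 and 2748 CPM, with 1 higher and 4 lower of 8 against shControl1. The median log2 fold change of the 8 in shZfr was −0.16 against shControl2, where their sum was higher, and 0.27 against shControl1. A sum therefore need not follow its typical marker. Progenitor markers summed to 1304 and 1223 CPM in shZfr, against 664 and 715 CPM in shControl2 and 350.3 and 294 CPM in shControl1. Of these, 2 of 10 were higher in shZfr against shControl2, 8 of 10 were higher against shControl1 and none were lower. Their replicates lay far apart in shAdar1, at 345 and 765 CPM, and in shAdar2, at 193 and 548 CPM. Against shControl1, none were called in shAdar1, and 2 were lower and none higher in shAdar2. Astrocyte markers summed to 1994 and 1845 CPM in shZfr, 711 and 1258 CPM in shAdar2, 1724 and 2890.0 CPM in shAdar1, 1396 and 949.6 CPM in shControl1, and 2982 and 3473 CPM in shControl2. Of these 10, 1 was higher and 5 were lower in shZfr against shControl2, and 4 were higher and 1 lower in shZfr against shControl1. In shAdar2 1 was higher and in shAdar1 4 were higher than in shControl1, with none lower, and 9 were higher and none lower in shControl2 than in shControl1. Oligodendrocyte lineage markers summed to 76.4 to 440 CPM over the 10 samples, with Mog under the filter. Of the 7 tested, 4 were higher and none lower in shZfr against shControl1, and 2 were lower and none higher against shControl2. Interneuron markers summed to 310 to 939 CPM and were lowest in shZfr, at 310 and 314 CPM. There 5 of 8 were lower against shControl2 and 3 of 8 against shControl1, with none higher. Microglia markers summed to 0.182 to 2.73 CPM, with Cx3cr1, Csf1r, Aif1 and Tmem119 under the filter, and vascular markers to 9.55 to 34.02 CPM, with Cdh5 and Cldn5 under it.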

How the data were processed

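Ribosomal RNA-depleted RNA was sequenced in 12 libraries. Per the file headers, the authors deposited RSEM gene tables with expected counts (estimated reads per gene) and TPM, and other RSEM values such as the posterior SD, also deposited by the authors. The submitters' processing notes name, with no role, RSEM 1.2.30, STAR 2.5.4b, DESeq2 1.20.0, Trim Galore 0.4.5, SAMtools 1.4 and the mm9 build. The deposited editing tables were not used here, since their sites are on mm9 and no annotation of that build was at hand.

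Expected counts were rounded, filtered with filterByExpr (14785 genes left), and scaled with TMM. All 10 samples entered 1 quasi-likelihood fit of edgeR 4.0.16 in R 4.3.3. A gene was called where its p, adjusted over all tested genes after Benjamini and Hochberg, was under 0.05. An SE is the log2 fold change divided by the root of F. Depth was 15818943 to 29671858 counts per library, and interval bounds of single libraries cover counting error only. The fit was checked on simulated data. Zmat3 and the gene lists were chosen with earlier results of these data known. The rule for named genes took Zmat3, the hairpin targets, 10 fixed p53 targets, called members of the other lists, 2 tested neighbours on each side and the 8 most similar genes; other p53 targets and Ahnak were picked as examples after their values were seen. Same-numbered replicates were not paired (see the closing section). Alternatives were no filter, the Wald test or the size factors of DESeq2 1.42.0, fewer groups in the fit, a replicate block, samples left out, single technical libraries, pooled controls, Rn45s left out, and log2(TPM + 1).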

Additional observations from a re-analysis of the deposited data

How the results depend on the processing

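The 5 tested differences of Zmat3 kept their side of the threshold under DESeq2, its size factors, no filter, only the compared groups, Rn45s left out, a replicate block and each sample left out, and single technical libraries did not end the shAdar2 call. Pooling the control hairpins ended the shAdar1 call against shControl2, at 0.47, and gave 1.09 for shAdar2 and 2.47 for shZfr. It left 0, 7, 5 and 5 p53 targets called for shAdar1 and shAdar2 against shControl1 and shZfr against shControl1 and shControl2, where the pooled group holds 2 hairpins that differ. With log2(TPM + 1), which has no test, Zmat3 differed by −0.12 (shAdar1) and −1.01 (shControl2) from shControl1, by 0.90 (shAdar1), 1.66 (shAdar2) and 3.06 (shZfr) from shControl2, by 2.05 in shZfr from shControl1 and by 2.17 in shZfr from shAdar1. That scale moved the median of all genes by −0.10 in shAdar1 and 0.13 in shControl2 against shControl1, by −0.22 in shAdar1 and −0.12 in shAdar2 against shControl2, and by 0.17 in shZfr against shAdar1. The direction of the shAdar1 value against shControl1, which passed no test, was negative on that scale. DESeq2 and its size factors each gave 2.04 for shZfr against shAdar1 and 2.02 against shControl1, and fitting only the compared groups gave 3.10 for shZfr against shControl2.

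With 1 sample left out, where a group of 1 is assumed to vary like the others, Zmat3 ranged from −0.02 to 0.01 (shAdar1) and 0.55 to 0.67 (shAdar2) against shControl1, from 1.12 to 1.18 and 1.73 to 1.84 against shControl2, and from −1.18 to −1.14 for shControl2 against shControl1. The shZfr values ranged from 3.15 to 3.18 against shControl2, 1.99 to 2.01 against shControl1, 1.99 to 2.03 against shAdar1 and 1.33 to 1.44 against shAdar2. The p53 targets called ranged from 13 to 14 and 9 to 19 for shAdar1 and shAdar2 against shControl1, 17 to 23 for shControl2 against shControl1, 13 to 15 for shZfr against shControl2 and 9 to 14 against shControl1. Same-numbered samples deviated together only between shAdar1 and shAdar2, at a correlation of 0.28, the 1 of 10 over 0.1 (lowest −0.12). Since the other groups did not, the numbers were not used as pairs. With a replicate block the shAdar2 value was 0.62 and no call of Zmat3 changed. Depth limits little here, since the lowest count of Zmat3 was 1505.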
